A study of Mus musculus with 14 samples.

Results

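Respiratory complex assembly factors are proteins that help to build complexes I to V of the mitochondrial inner membrane and are not part of the finished enzymes. The 38 nuclear genes described here were taken by name from the count table of mouse lung tumors, by matching Ensembl identifiers to symbols in the GENCODE annotation of GRCm38. They are 38 of 52550 genes in the table. Complex I contributed 13 genes, complex II 4, complex III 6, complex IV 12 and complex V 3. All 38 passed the expression filter and were among the 16836 genes tested.

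The complexes of the respiratory chain are put together from many subunits, metal centers and heme groups, and each of these steps has dedicated helpers. Some assembly factors hold partly built modules together, some insert iron-sulfur clusters, copper or heme, and some place the mitochondrially encoded core proteins in the membrane. They are known mainly from inherited mitochondrial disease, in which loss of a single factor lowers the amount of its complex.

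The RNA came from tumors of KPY mice, which carry, among other alleles, floxed alleles of p53 (Trp53 flox/flox) and a Cre-activated yellow fluorescent protein reporter (Rosa26 LSL-YFP/LSL-YFP), on a mixed genetic background. Tumors were started by lentivirus (LentiCRISPRv2Cre) given through the airway, which delivered Cre and Cas9 with a guide against Setd2 or a control guide. The groups were 6 KPY-Ctrl and 8 KPY-Setd2KO tumors, compared here to see whether the assembly factor genes differed with loss of Setd2. Setd2 is the enzyme that trimethylates histone H3 lysine 36. Tumors were dissected one by one, and live YFP-positive cells were sorted before single-end sequencing. All tumors shared the alleles of the KPY mice, Cre and Cas9. Editing by a guide differs between cells, so a KPY-Setd2KO tumor may hold cells with intact Setd2. The age of the animals at sampling was not given in the sources used here, and for tumor initiation the study states only an upper limit of age. Fewer mice than tumors were used in each genotype and the mouse of each tumor was not given, so every test treated tumors as independent. The sample labels describe cell lines and other kits than the methods do, and the methods are followed here.

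Each KPY-Ctrl library held between 27866266 and 51828846 counts, and each KPY-Setd2KO library between 20072236 and 40604404. The targeted gene, Setd2, ran from 41.9 to 63.6 CPM (TMM-scaled counts divided by the library total, on the usual CPM scale) in KPY-Ctrl, mean 53.0 ± 8.51 (SD, n = 6). In KPY-Setd2KO it ran from 17.9 to 47.4 CPM, mean 31.7 ± 10.9 (SD, n = 8), so tumors of both groups shared a range. Its log2 fold change was -0.74 (SE 0.22, edgeR adjusted p = 0.175), with an exact two-sided permutation p of 0.00466. Within the 7 tumors of low and the 7 of high leukocyte-marker RNA described next, it was -1.27 (adjusted p = 0.0306 by edgeR) and -0.34 (adjusted p = 0.425). RNA of leukocyte markers set 7 tumors apart from the other 7. The score, which is the mean log2 CPM of 10 leukocyte markers such as Ptprc and Laptm5, lay between 8.77 and 9.41 in KPY-Ctrl replicates 1, 2 and 6 and KPY-Setd2KO replicates 1 to 4, and between 3.59 and 5.83 in the other tumors. All 10 markers reached 1 CPM in at least 1 tumor, and their summed level ran from 551 to 8809 CPM among KPY-Ctrl tumors and from 278 to 11791 CPM among KPY-Setd2KO tumors. The 8 epithelial markers, which sorted tumor cells should carry, summed to between 1964 and 6659 CPM in the control tumors and to between 1167 and 7750 CPM in the Setd2KO tumors. Endothelial markers summed to at most 49.7 CPM, fibroblast markers to at most 85.9 and erythroid genes to at most 422 in any tumor, and alveolar type 2 markers to at least 5308. High leukocyte-marker RNA goes against a label of sorted tumor cells, so the genotype differences of Setd2 and of the 6 genes with an unadjusted p under 0.05 are given for each set of tumors. In bulk RNA, fewer cells of a type and less RNA per cell cannot be told apart.

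Promoter sequences are shown first for some of the genes, chosen for motif letters in the printed stretch or for their p-values. The choice favors stretches with motif letters, and the shares over all promoters follow below. RefSeq promoters (build GRCm38.p6) were matched for 33 of the 38 genes; Ndufaf6, Acad9, Cox17, Cox18 and Tmem70 had no entry. The window ran from 250 bases before to 50 bases after the start, and only stretches before the start that hold no annotated exon are printed, in lower case. Capitals mark motif letters on either strand. NRF1 letters (GCGCANGCG) are the recognition motif of a known regulator of nuclear genes for mitochondria, and ETS letters (CCGGAAGT) are those of the ETS factor family. Ndufaf4 and Ttc19 show the NRF1 letters and Timmdc1 and Cox16 the ETS letters. Ndufaf2 and Uqcc3 are shown because they had the smallest p-values for genotype in the group, and their stretches hold none of the motifs searched.
Ndufaf4, chr4:24897933-24898082, plus strand: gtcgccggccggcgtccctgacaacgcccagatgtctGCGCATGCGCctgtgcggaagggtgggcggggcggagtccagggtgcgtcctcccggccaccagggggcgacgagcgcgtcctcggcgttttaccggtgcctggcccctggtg
Ttc19, chr11:62281376-62281472, plus strand: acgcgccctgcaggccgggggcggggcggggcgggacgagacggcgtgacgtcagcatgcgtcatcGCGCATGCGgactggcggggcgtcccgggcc
Timmdc1, chr16:38522664-38522813, minus strand: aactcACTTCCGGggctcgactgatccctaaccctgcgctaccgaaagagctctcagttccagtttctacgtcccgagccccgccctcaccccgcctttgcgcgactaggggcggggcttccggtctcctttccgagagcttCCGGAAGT
Cox16, chr12:81485138-81485287, minus strand: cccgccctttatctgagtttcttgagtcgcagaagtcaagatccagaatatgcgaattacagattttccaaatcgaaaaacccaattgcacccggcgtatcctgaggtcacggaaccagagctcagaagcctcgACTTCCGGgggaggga
Ndufaf2, chr13:108158626-108158730, minus strand: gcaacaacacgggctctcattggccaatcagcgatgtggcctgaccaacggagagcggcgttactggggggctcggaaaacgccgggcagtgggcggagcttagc
Uqcc3, chr19:8880934-8881083, minus strand: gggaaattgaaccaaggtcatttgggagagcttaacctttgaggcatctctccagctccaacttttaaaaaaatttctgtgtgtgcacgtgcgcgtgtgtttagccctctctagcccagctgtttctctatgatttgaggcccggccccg

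In Ndufaf4 the NRF1 letters begin 113 bases before the start and overlap with a match on the other strand that begins 1 base further on, so the capitals cover 10 bases. In Ttc19 they begin 31 bases before the start. Timmdc1 has 2 ETS matches, at 145 and 8 bases before the start and on opposite strands, and Cox16 has 1, at 16 bases before the start. Over the whole window, NRF1 letters were found in 6 of 33 assembly factor promoters (18.2%), in 21 of 63 promoters of structural subunits (33.3%) and in 9.63% of 17491 protein-coding promoters. The ETS letters were found in 6 of 33 (18.2%), in 5 of 63 subunit promoters (7.94%) and in 5.69% of protein-coding promoters. YY1 letters (AAGATGGCG), searched on both strands like the others, were found in 3 of 33 (9.09%), 7 of 63 (11.1%) and 2.14%. The letters of the estrogen-related receptor motif (TCAAGGTCA) were in none of the 33, in 2 of 63 subunit promoters (3.17%) and in 0.377% of protein-coding promoters. At least 1 of the 4 motifs was found for 14 genes, and 1 gene, Cox10, held letters of both YY1 and ETS. These are matches of letters in a fixed window and were not tested.

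Position in the genome was a feature that the choice of genes did not use. A protein-coding gene starting on the opposite strand, from 1000 bases upstream to 500 bases downstream of the start, was found for 10 of the 38 genes (26.3%), against 13.4% of 13852 protein-coding genes tested and 26 of 76 structural subunits (34.2%). This comparison was chosen after the data were seen and is a description. The stretch printed for Ndufaf2 is the gap between it and Ercc8, a DNA repair gene, whose starts lie 108 bases apart, and that printed for Ttc19 is the gap to Zswim7, with starts 98 bases apart. The other such pairs were Ndufaf5 and Esf1, Ndufaf7 and Cebpz, Bcs1l and Zfp142, Sco1 and Adprm, Cox11 and Stxbp4, Cox15 and Cutc, Surf1 and Surf2, and Tmem126b and Dlg2.

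Assembly factor RNA was low beside that of the enzymes it serves. The genes were already described as less abundant than the subunits when they were chosen, so the contrast is a description. Per kilobase of exon, the median assembly factor measured 4.61 ± 0.765 CPM per kb in the KPY-Ctrl tumors (SD, n = 6) and 4.62 ± 0.714 CPM per kb in the KPY-Setd2KO tumors (SD, n = 8). The median of 76 nuclear structural subunits was 53.2 ± 13.1 and 62.4 ± 14.5 CPM per kb. Within a tumor, the subunit median was 12.6 ± 2.06 times the assembly factor median (SD, n = 14), and the ratio lay between 9.56 and 16.2 in single tumors. By genotype it was 11.4 ± 1.07 in KPY-Ctrl (SD, n = 6; 9.99 to 12.8) and 13.4 ± 2.24 in KPY-Setd2KO (SD, n = 8; 9.56 to 16.2). The difference between the genotypes was not tested. All 38 genes were below the median subunit of their own complex, and 28 were below its lowest subunit.

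The contrast was seen in every complex. Complex I factors had a median of 4.75 CPM per kb against 41.5 for its subunits, and complex II factors 4.79 against 47.6. Complex III factors stood at 4.38 against 76.6, complex IV factors at 6.199 against 89.5, and complex V factors at 8.67 against 90.2. The factors differed widely among themselves, from 0.227 to 42.3 CPM per kb.

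**Figure D1:**
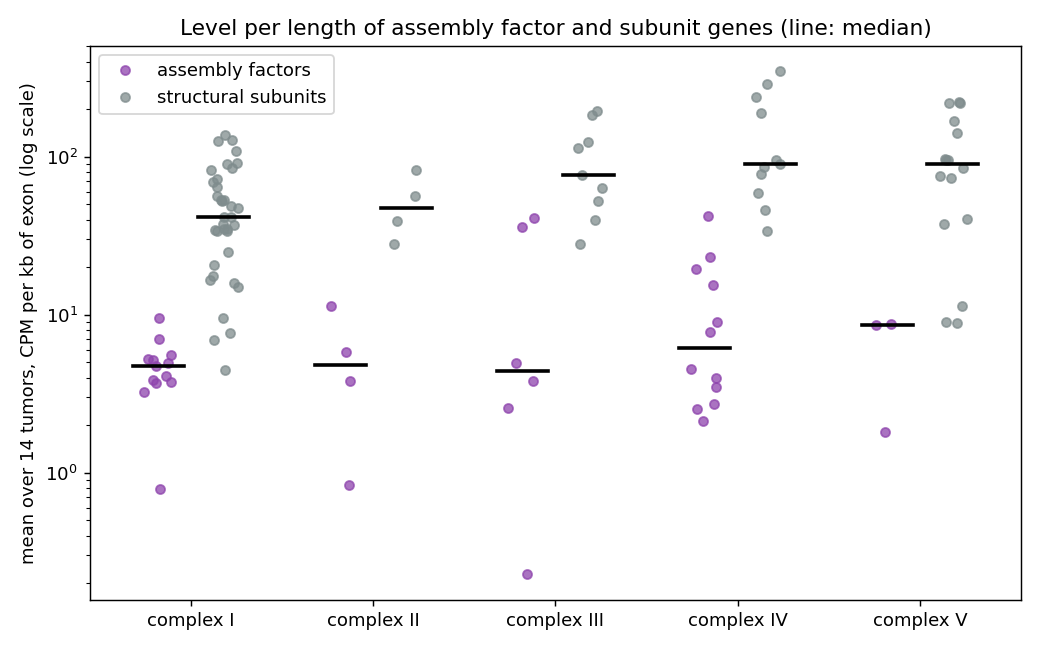
Level per length of the assembly factor genes (purple) and structural subunit genes (grey) of each complex, as the mean over 14 tumors in CPM per kb of exon on a log scale, with a line at each median. Each purple median, between 4.38 and 8.67, lies below the grey median of the same complex, between 41.5 and 90.2.

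Cox14, which binds the newly made core subunit of cytochrome c oxidase, stood highest at 42.3 ± 9.96 CPM per kb over the 14 tumors. Uqcc2, which stabilizes newly made cytochrome b of complex III, followed at 41.0 ± 14.1, and Uqcc3, which acts later in the same pathway, at 35.96 ± 9.65. These 3 did not differ beyond their spread. Cox20, which handles the second core subunit of complex IV, came next at 23.2 ± 7.04 CPM per kb. The lowest were Sdhaf3, an iron-sulfur factor of complex II, at 0.838 ± 0.256, and Nubpl, which delivers iron-sulfur clusters to complex I, at 0.793 ± 0.357. Lyrm7, a chaperone of the Rieske iron-sulfur protein, was the lowest at 0.227 ± 0.104 CPM per kb. With the length of the principal transcript in place of all exons, Uqcc2 stood first at 68.6 CPM per kb, Ndufaf2 moved from place 15 to place 6 and Lyrm7 remained last.

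No assembly factor gene was called between the genotypes, and neither was any other gene. In edgeR's quasi-likelihood test, 0 of 16836 genes (0%) and 0 of the 38 had an adjusted p under 0.05. At an unadjusted p under 0.05 there were 6 of 38 (15.8%), beside 13.7% of all genes tested, a share near the background. Of these, 4 were higher in KPY-Setd2KO (Ndufaf2, Uqcc3, Lyrm7 and Cox20; 10.5%, beside 6.93% of all genes) and 2 were lower (Acad9 and Atpaf1; 5.26%, beside 6.8%). The ranges of the genotypes overlapped for all 38, while 0.57% of all genes tested had ranges that did not.

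The median log2 fold change of the 38 was 0.09, that of all genes tested 0.03 and that of the 76 structural subunits 0.17. The log2 fold change was above 0 for 25 of the 38 and below 0 for 13, from -0.48 for Atpaf1 to 0.86 for Lyrm7. Among all 16836 genes tested it was above 0 for 8877 and below 0 for 7959, and among the 76 subunits for 54 and 22. With library size as the only scaling, all genes had a median of -0.11 and the assembly factors one of -0.05, a shift of the whole scale. Relative to all genes the assembly factors stood 0.06 higher under either scaling. By complex the medians were 0.04 for I, 0.10 for II, 0.13 for III, 0.11 for IV and -0.19 for V. Among the subunits, 11 of 76 were higher and 0 lower at an unadjusted p under 0.05, beside 6.93% and 6.8% of all genes tested.

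**Figure D2:**
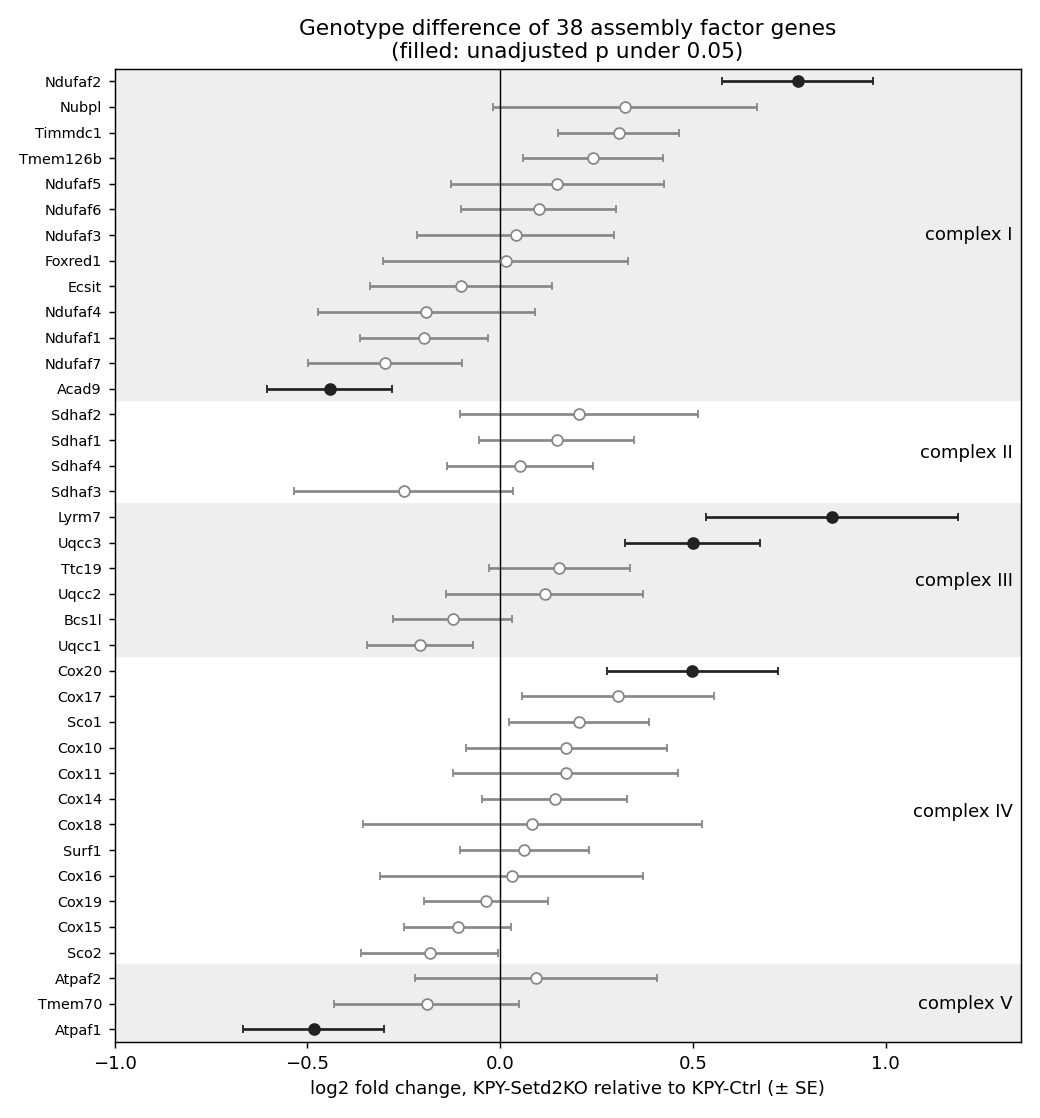
Log2 fold change of each assembly factor gene between KPY-Setd2KO and KPY-Ctrl tumors (positive where KPY-Setd2KO is higher), grouped by complex, with bars of 1 standard error from edgeR's fit to 14 tumors. The 6 filled points had an unadjusted p under 0.05, and values run from -0.48 for Atpaf1 to 0.86 for Lyrm7.

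Among complex I factors, Ndufaf2 had the smallest p of the whole group. It acts late in complex I assembly and is related to a subunit of the finished enzyme. The gene (ENSMUSG00000068184.7) lies on the minus strand of chromosome 13 from 108002715 to 108158623. Its lowest, median and highest values were 8.20, 11.4 and 17.0 CPM in KPY-Ctrl and 13.9, 20.2 and 26.6 CPM in KPY-Setd2KO. Only KPY-Ctrl replicate 6, the highest of its group, reached into the range of the KPY-Setd2KO tumors. Means were 11.8 ± 3.02 (SD, n = 6) and 20.2 ± 4.49 CPM (SD, n = 8), a log2 fold change of 0.77 (SE 0.20; adjusted p = 0.133 by edgeR's quasi-likelihood test). DESeq2 called it (adjusted p = 0.0105), as the only assembly factor among 3.61% of genes called. When the leukocyte-marker score was added to the model, edgeR called it too (log2 fold change 0.74, adjusted p = 0.0175, again the only one of the 38, beside 5.26% of genes). It was 0.83 in the 7 tumors with low scores (adjusted p = 0.053 by edgeR) and 0.70 in the 7 with high scores (adjusted p = 0.304). Left out one at a time, no tumor took the fold change below 0.68 or above 0.90. Ercc8, which starts 108 bases away in the other direction, had a log2 fold change of -0.06 (SE 0.26, unadjusted p = 0.818 by edgeR). A non-coding gene on the other strand, B230220B15Rik, shares 65.6% of the Ndufaf2 exons but measured 0.935 CPM in KPY-Ctrl and 0.797 CPM in KPY-Setd2KO on average.

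Acad9, which doubles as a fatty acid oxidation enzyme and an assembly factor in the intermediate-binding complex, is named because of its value. Control tumors measured from 24.7 to 43.8 CPM, mean 31.3 ± 6.73 (SD, n = 6), and KPY-Setd2KO tumors from 16.1 to 30.1 CPM, mean 23.0 ± 4.19 (SD, n = 8). The highest tumor was KPY-Ctrl replicate 3 and the lowest KPY-Setd2KO replicate 7. The log2 fold change was -0.44 (SE 0.16, adjusted p = 0.251 by edgeR), with -0.56 in the tumors with low scores and -0.33 in those with high scores (adjusted p = 0.197 and 0.389). Its partners in the intermediate-binding complex had values on both sides of 0. Ndufaf1 had a log2 fold change of -0.20, Ecsit -0.10, Tmem126b 0.24 and Timmdc1 0.31, each with an unadjusted p over 0.05 in edgeR. Ndufaf3, Ndufaf4, Ndufaf5, Ndufaf6 and Ndufaf7, which work on the quinone-binding module, ranged from -0.30 to 0.15. Foxred1, an oxidoreductase needed for complex I, was at 0.01, and Nubpl at 0.32 (SE 0.34).

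Complex II was represented by 4 factors. Sdhaf2 and Sdhaf4 help to attach and protect the flavin of Sdha, and Sdhaf1 and Sdhaf3 serve the iron-sulfur clusters of Sdhb. None of the 4 had an unadjusted p under 0.05. Log2 fold changes were 0.20 for Sdhaf2, 0.15 for Sdhaf1, 0.05 for Sdhaf4 and -0.25 for Sdhaf3 (SE between 0.19 and 0.31). Sdhaf2 was the most abundant by CPM, 22.5 to 53.4 in control tumors and 24.1 to 65.8 in Setd2KO tumors, so its spread within a genotype was wider than the difference between them.

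Complex III held 2 of the 4 higher values. Uqcc3 (ENSMUSG00000071654.5, chromosome 19, minus strand, 8880014 to 8880923) had its lowest, median and highest at 18.4, 23.5 and 29.2 CPM in KPY-Ctrl and at 21.8, 32.3 and 44.8 CPM in KPY-Setd2KO. Of the 8 KPY-Setd2KO tumors, 6 were above every KPY-Ctrl tumor. The log2 fold change was 0.50 (SE 0.18, adjusted p = 0.235 by edgeR and 0.0976 by DESeq2). With the leukocyte-marker score it was 0.49 (adjusted p = 0.0707 by edgeR and 0.0347 by DESeq2). DESeq2 with the score called 3 of the 38 genes, Ndufaf2, Uqcc3 and Cox20, beside 12.3% of all genes. The log2 fold change of Uqcc3 was 0.71 in the tumors with low scores (unadjusted p = 0.0188, edgeR) and 0.29 in those with high scores (unadjusted p = 0.0884). Among the KPY-Setd2KO tumors with low scores, replicates 7 and 8 measured 44.8 and 40.8 CPM, and replicates 5 and 6 measured 21.8 and 28.5 CPM. Replicates 7 and 8 were also the libraries with the lowest total counts.

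Lyrm7 (ENSMUSG00000020268.13, chromosome 11, minus strand, 54826866 to 54860916) is the lowest gene of the group. Its values were 0.409, 0.838 and 1.04 CPM in KPY-Ctrl and 0.824, 1.45 and 2.33 CPM in KPY-Setd2KO as lowest, median and highest. The 3 lowest KPY-Setd2KO tumors, all with high leukocyte-marker RNA, fell within the KPY-Ctrl range. The log2 fold change was 0.86 (SE 0.33, adjusted p = 0.26 by edgeR), and it was 1.29 in the tumors with low scores and 0.32 in those with high scores (unadjusted p = 0.0224 and 0.484, edgeR). The difference between these 2 values was not tested. Uqcc1, Uqcc2, Bcs1l, the AAA protein that carries the Rieske protein across the membrane, and Ttc19, which helps to clear its processing fragments, ranged from -0.21 to 0.15.

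Complex IV factors fall into those that make and insert heme, those that carry copper and those that handle core subunits. Cox10 and Cox15, the enzymes of heme A synthesis, had log2 fold changes of 0.17 (SE 0.26) and -0.11 (SE 0.14). The copper factors Cox17, Cox19, Cox11, Sco1 and Sco2 ranged from -0.18 for Sco2 to 0.31 for Cox17, and none had an unadjusted p under 0.05. The same held for Cox14, Surf1, Cox16 and Cox18, from 0.03 to 0.14.

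Cox20 (ENSMUSG00000026500.6, chromosome 1, plus strand, 178319130 to 178322693) was the exception. Its lowest, median and highest were 10.2, 17.0 and 24.0 CPM in KPY-Ctrl and 13.2, 25.5 and 29.6 CPM in KPY-Setd2KO. In each genotype the 3 lowest values were in tumors with low leukocyte-marker RNA, but so was the highest of all, KPY-Setd2KO replicate 7. Its slope on the marker score was 0.12 (adjusted p = 0.00641 by edgeR) and 0.06 with library size as the only scaling (adjusted p = 0.154). The log2 fold change was 0.50 (SE 0.22, adjusted p = 0.339 by edgeR and 0.247 by DESeq2), and 0.47 with the score as a covariate (adjusted p = 0.0866 by edgeR and 0.0496 by DESeq2). It was 0.65 in the tumors with low scores and 0.36 in those with high scores (adjusted p = 0.161 and 0.349 by edgeR). Of its exons, 91.1% lie opposite Hnrnpu, which measured 510 ± 60.6 CPM (SD, n = 6) and 687 ± 124 CPM (SD, n = 8), with a log2 fold change of 0.43 (SE 0.16, adjusted p = 0.247 by edgeR). Whether counting used strand was not given in the sources used here, and without it reads of these genes cannot be told apart. The same limit holds for Sco2, with 66.2% of its exons opposite Ncaph2. That gene measured 114 CPM in KPY-Ctrl and 108 CPM in KPY-Setd2KO on average.

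Complex V factors were few. Atpaf1, which binds the beta subunit of the F1 head, had the lowest log2 fold change of the 38. It lies on chromosome 4 (ENSMUSG00000028710.16, plus strand, 115784812 to 115818828). Its lowest, median and highest were 4.37, 8.45 and 9.26 CPM in KPY-Ctrl and 5.16, 5.55 and 6.49 CPM in KPY-Setd2KO. The KPY-Setd2KO tumors lay close together, and KPY-Ctrl replicate 1, at 4.37 CPM, was below all of them while the other KPY-Ctrl tumors were above. The log2 fold change was -0.48 (SE 0.18, adjusted p = 0.258 by edgeR and 0.0979 by DESeq2), and -0.61 without that tumor, when the genotypes no longer overlapped. It was -0.70 in the tumors with low scores and -0.27 in those with high scores (adjusted p = 0.064 and 0.674 by edgeR). Atpaf2, which binds the alpha subunit, was at 0.09 (SE 0.31) and Tmem70, which serves the c-ring, at -0.19 (SE 0.24).

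**Figure D3:**
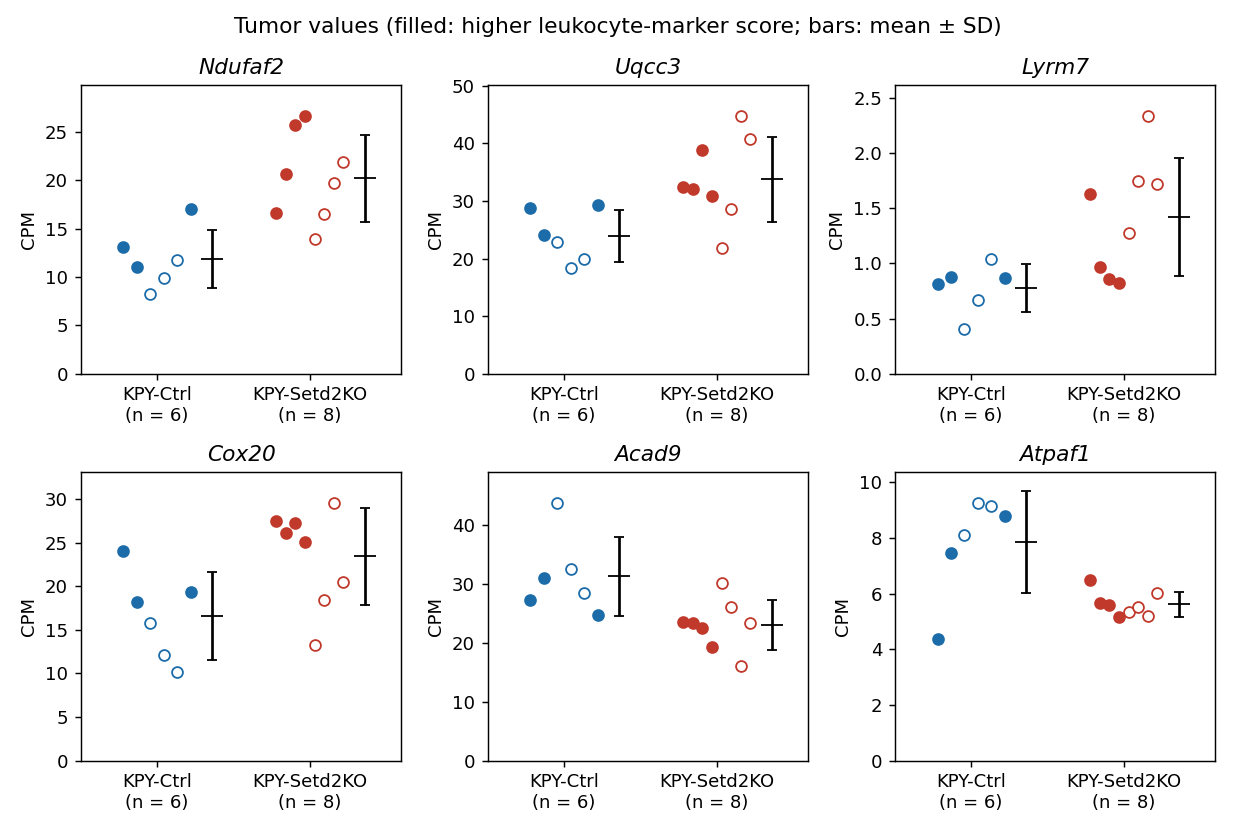
CPM of the 6 assembly factor genes with an unadjusted p under 0.05 in each KPY-Ctrl (blue, n = 6) and KPY-Setd2KO (red, n = 8) tumor, filled for the 7 tumors with high leukocyte-marker scores, with mean and SD beside them. The genotypes overlap in every panel, through KPY-Ctrl replicate 6 alone in Ndufaf2 and through KPY-Ctrl replicate 1 alone in Atpaf1.

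Within the 7 tumors with low scores, 10 of the 38 genes had an unadjusted p under 0.05 (26.3%, beside 27.8% of the genes tested there), and within the 7 with high scores 4 had (10.5%, beside 13.8%). None had an adjusted p under 0.05 in edgeR in either set, beside 6.26% of genes in the tumors with low scores and 0% in the others. The sign of the log2 fold change was opposite in the 2 sets for 23 of the 38 (60.5%), beside 38.3% of 15643 genes tested in both, and the median of the 38 was close to 0 in each set (-0.01 and 0.01). With limma voom and sample quality weights 19 of the 38 were called (50%), 16 of them higher, beside 49.3% of all genes. The share of all genes called higher in that fit was not computed, so the direction is not a result about these genes. At an unadjusted p under 0.05 that tool gave 22 of the 38, beside 57.3% of all genes.

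The absolute log2 fold change was smaller than the SD of log2 CPM within genotype for 31 of the 38 genes, and not for 7. The median SD of log2 CPM within genotype was 0.348, from 0.216 to 0.835 (Cox18), against 0.393 for the structural subunits and 0.670 for all genes tested. With the leukocyte-marker score in the model the median SD was 0.278 for the assembly factors, 0.278 for the subunits and 0.433 for all genes.

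The share of assembly factor genes that varied with leukocyte-marker RNA was close to that of all genes, and nearly all of them rose with it under TMM scaling, while under library size scaling the directions were split. In a model of genotype and score, the slope on the score was called for 22 of 38 genes (57.9%), beside 56.8% of all genes tested. It was positive for 20 (52.6%, beside 28.4%) and negative for 2, Ndufaf7 and Ttc19 (5.26%, beside 28.4%). Scaling by library size alone gave 19 calls (50%, beside 58.7%), 10 positive (26.3%, beside 18.6%) and 9 negative (23.7%, beside 40.1%). Called under both scalings were 12 genes, all with the same sign and 10 of them positive. The median slope was 0.09 log2 per unit of score, against -0.01 for all genes, and 0.02 against -0.08 with library size alone.

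Foxred1 had one of the 3 largest slopes, and its ranges in the tumors with high and low scores lay apart. It measured from 20.3 to 26.1 CPM in the 7 tumors with high scores (median 23.0) and from 8.15 to 14.2 CPM in the others (median 10.6). The slope was 0.24 log2 per unit (SE 0.03, adjusted p = 2.67e-06 by edgeR). Cox16, which takes part in the maturation of the second core subunit of complex IV, ran from 33.7 to 51.8 CPM in the high tumors and from 13.0 to 24.3 CPM in the others, with a slope of 0.25 (SE 0.03). Cox18, which moves the tail of that subunit across the membrane, had the largest slope, 0.30 (SE 0.05), but its ranges of 5.55 to 16.2 and 2.95 to 5.66 CPM overlapped. A predicted gene on the same strand, Gm20498, shares 56.8% of the Cox16 exons and measured 3.24 CPM in KPY-Ctrl and 3.95 CPM in KPY-Setd2KO on average.

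The next largest slopes were 0.22 for Sdhaf2, 0.22 for Nubpl and 0.21 for Atpaf2. Sdhaf2 measured from 49.3 to 65.8 CPM in the high tumors and from 22.5 to 32.9 CPM in the others. The ranges also lay apart for Nubpl, Ecsit, Cox10, Cox19 and Atpaf2, which makes 8 of the 38 (21.1%), all higher with high scores. Among all genes tested the ranges lay apart for 23%, and 13.6% were higher. Nubpl, the least abundant of these, ran from 3.59 to 7.61 CPM in the high tumors against 2.26 to 3.21 CPM.

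The 2 called negative slopes were smaller under TMM scaling and of similar size to the positive ones with library size alone. Ndufaf7, a methyltransferase for a complex I subunit, measured from 10.95 to 20.2 CPM in the high tumors and from 15.9 to 25.2 CPM in the others (slope -0.11, SE 0.03, adjusted p = 0.00524 by edgeR). Ttc19 measured from 8.38 to 12.4 and from 10.6 to 17.7 CPM (slope -0.09, SE 0.03, adjusted p = 0.0135). With library size as the only scaling these slopes were -0.20 and -0.18, beside 0.25 for Cox18, 0.19 for Cox16 and 0.18 for Foxred1. Both sets of ranges overlapped. Cebpz, which starts 70 bases from Ndufaf7, had a slope of 0.04 (adjusted p = 0.174), and Zswim7, next to Ttc19, had one of 0.19 (adjusted p = 0.00551). Uqcc1 had a slope of -0.01 (adjusted p = 0.695), which became -0.09 and was called with library size alone (adjusted p = 0.0143). Cox11, a copper chaperone, had a slope of -0.12 that was not called (adjusted p = 0.0625), and one of -0.21 that was called with library size alone (adjusted p = 0.00831). Of the Cox11 exons, 48.3% lie opposite Tom1l1, which measured 39.9 CPM in KPY-Ctrl and 34.3 CPM in KPY-Setd2KO on average. Tom1l1 had a slope of -0.29 under TMM scaling (adjusted p = 0.000323 by edgeR). As for Cox20, reads of the 2 genes cannot be told apart without strand.

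**Figure D4:**
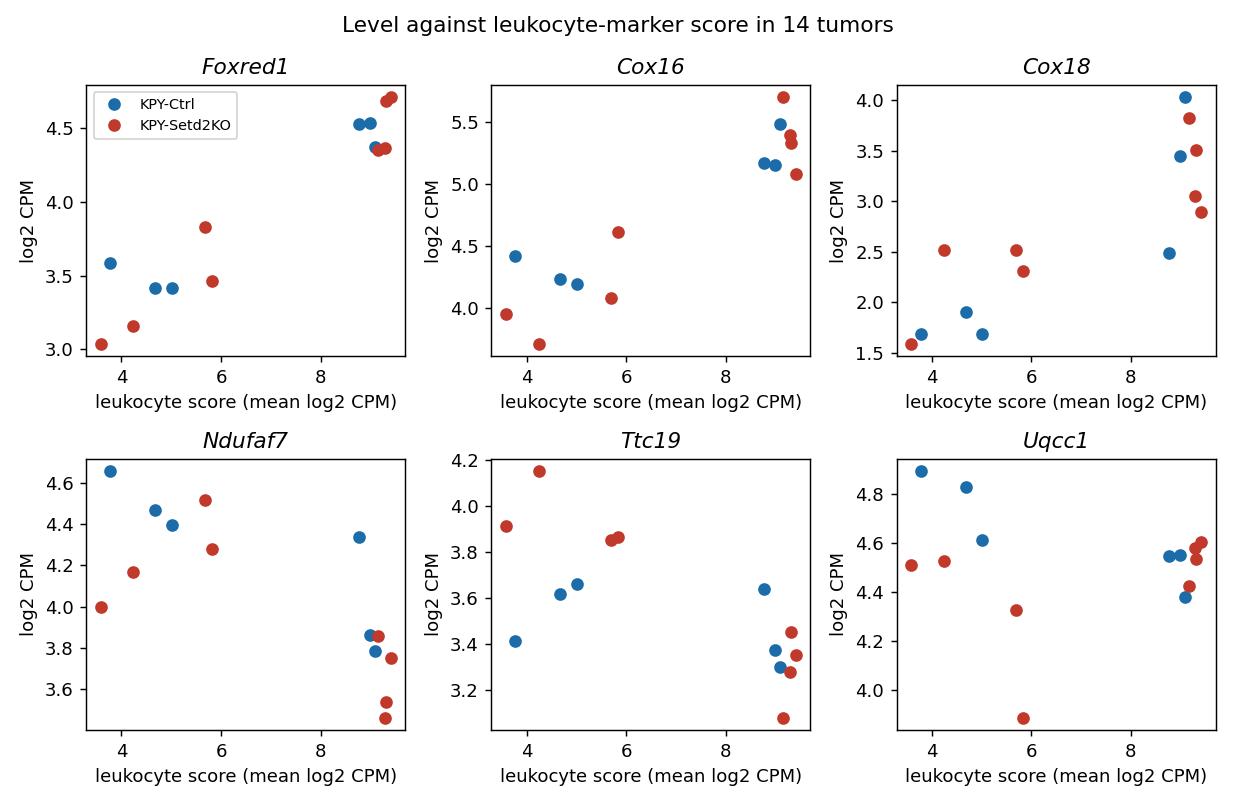
Log2 CPM of 6 assembly factor genes against the leukocyte-marker score (mean log2 CPM of 10 markers) in 14 tumors, KPY-Ctrl in blue and KPY-Setd2KO in red. Foxred1, Cox16 and Cox18 rise with the score with slopes of 0.24, 0.25 and 0.30 log2 per unit, Ndufaf7 and Ttc19 fall with slopes of -0.11 and -0.09, and Uqcc1 has a slope of -0.01, all under TMM scaling.

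By complex and under TMM scaling, beside 28.4% of all genes rising and 28.4% falling, the slope was called positive for 9 of 13 factors of complex I, 2 of 4 of complex II, 0 of 6 of complex III, 7 of 12 of complex IV and 2 of 3 of complex V. With library size alone, where 18.6% of all genes rose and 40.1% fell, complex I factors had 5 positive and 3 negative calls, complex II 1 and 0, complex III 0 and 3, complex IV 3 and 2, and complex V 1 and 1. Among structural subunits the slope was positive for 45 of 76 and negative for 1 under TMM scaling, and positive for 16 and negative for 2 with library size alone. Of 22 other assembly factors tested, such as those of the Coa family, 15 were positive and 0 negative, or 11 and 2 with library size alone. None of the 13 mitochondrially encoded genes was called positive and 3 were negative, with a median slope of -0.11, while 8 were negative with library size alone. The median slopes under TMM scaling were 0.10 for complex I factors, 0.10 for complex II, -0.03 for complex III, 0.09 for complex IV and 0.14 for complex V. Macrophage markers moved with the same tumors, with a summed level of 12 markers from 394 to 36676 CPM among control tumors and from 265 to 64736 CPM among Setd2KO tumors. All 8 epithelial markers had called negative slopes. The part of either cell type in the slopes was not tested.

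**Figure D5:**
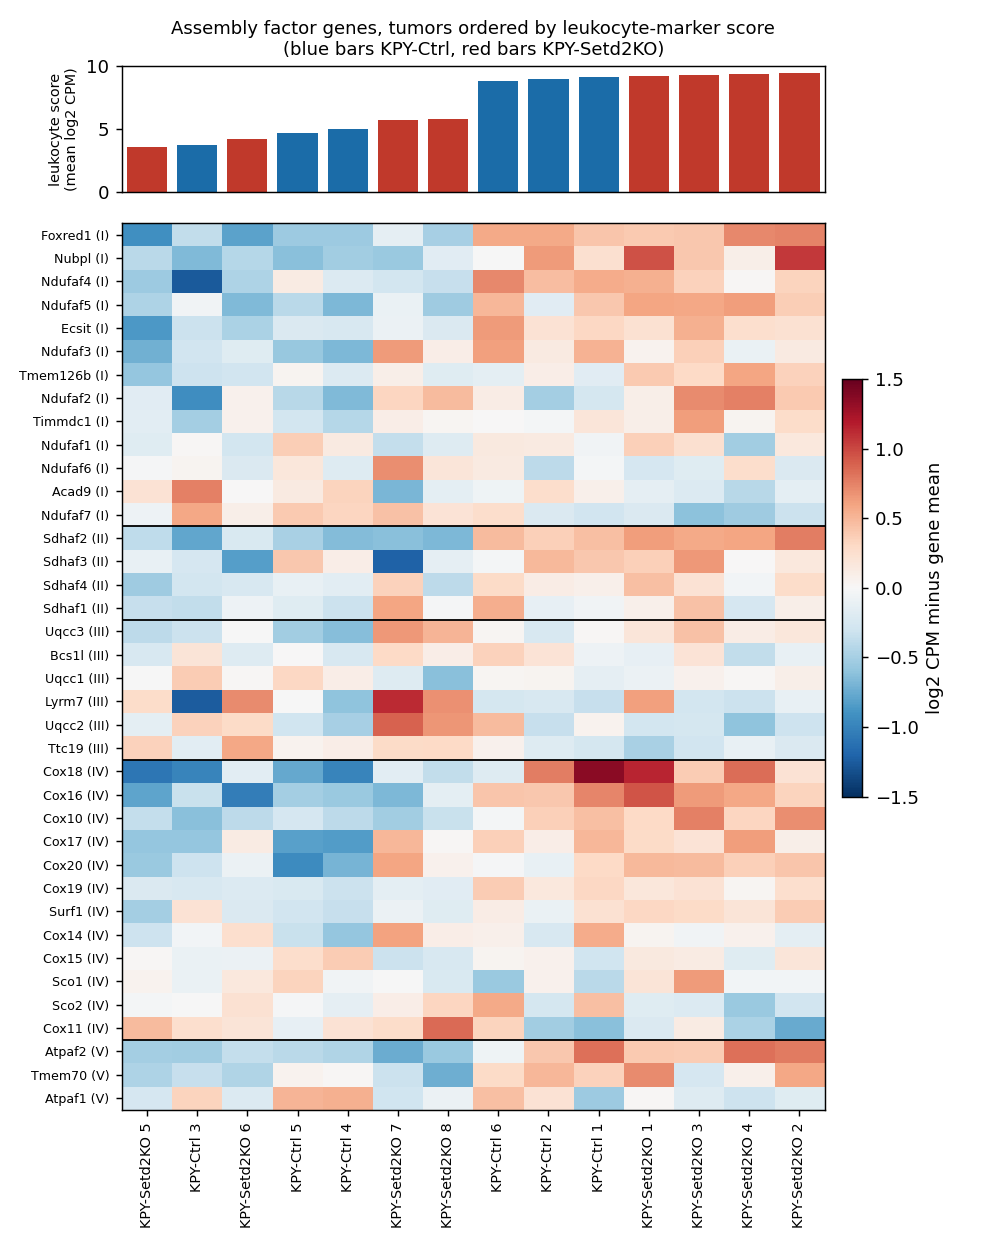
Log2 CPM of each assembly factor gene minus its mean (red high, blue low) in 14 tumors ordered from left to right by the leukocyte-marker score shown as bars (KPY-Ctrl blue, KPY-Setd2KO red), with genes grouped by complex. The 20 genes with a called positive slope are mostly blue in the 7 tumors with scores up to 5.83 and red in the 7 with scores from 8.77, and no complex III gene is among them.

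Single tumors differed in how many of these genes they led. Within KPY-Ctrl, replicate 6 was highest for 14 of the 38 genes and replicate 3 lowest for 15. Within KPY-Setd2KO, replicate 7 was highest for 10, among them Uqcc2 (60.3 CPM), Uqcc3 (44.8 CPM), Cox14 (45.5 CPM) and Ndufaf3 (14.1 CPM), and replicate 5 was lowest for 16. Replicate 7 was also the library with the lowest total count, 20072236, and the largest share of counts from mitochondrially encoded genes, 14.9%, beside 3.50% to 11.9% in the other tumors. KPY-Setd2KO replicate 8 came next in both, with 24561092 counts and 11.9%. Without replicate 7, the log2 fold change of Uqcc3 went from 0.50 to 0.43, that of Cox14 from 0.14 to 0.05 and that of Uqcc2 from 0.12 to -0.03. The part of depth in these values was not tested.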

How the data were processed

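RNA of 6 KPY-Ctrl and 8 KPY-Setd2KO tumors was sequenced. The deposited values are the authors' estimated counts for each Ensembl gene, rounded to whole numbers and made with Salmon 0.8.2 against GRCm38.p5 according to the submitters' processing notes, without normalization. The 38 assembly factors, the lists of subunits and markers and the alternatives were chosen with earlier results of these data known.

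Counts were fitted with edgeR 4.0.16 in R 4.3.3 (filterByExpr, TMM scaling, quasi-likelihood test with robust estimation), with Benjamini-Hochberg adjustment over all genes tested and calls at an adjusted p under 0.05. Alternatives used DESeq2 1.42.0 and limma 3.58.1. CPM were computed after TMM scaling, log2 CPM used a prior count of 2, and levels per kb used the union of annotated exons. Slopes came from a model of genotype and the leukocyte-marker score. The fits within tumors of high or of low score, the DESeq2 fit with the score and the principal transcript lengths were added after the data were seen, as was the comparison of neighboring gene starts.

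Named genes were Setd2, in each complex the gene with the smallest p and that with the largest change, any called by edgeR or DESeq2, those with the 3 largest called slopes in each direction (only 2 were negative), the 3 highest and 3 lowest levels per length, and genes set apart by 1 tumor; Acad9 and others outside this rule were chosen after their values were seen. Replicates are separate tumors, some from the same mouse, so p-values measure the spread between tumors. Depth ran from 20072236 to 51828846 counts. Sdhaf2, an abundant gene of the group, had an SE of 0.31 for genotype. The parts of counting error and of spread between tumors in the standard errors were not separated. On simulated counts for 16836 genes, edgeR recovered 46.5% of 200 genes changed between genotypes by a log2 of 1.5, with 2 false calls, and 95% of 200 genes with a slope of 0.5 per unit of score, with 6 false calls. Both sizes are above every value of the 38 genes, which reached 0.86 for Lyrm7 and a slope of 0.30 for Cox18. The changed genes were drawn from all genes tested, so recovery at the sizes of these genes was not measured. Protein sequences were not used here. One allele of the KPY mice is not reported here.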

Additional observations from a re-analysis of the deposited data

Results flagged for a closer look

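In 78 groups examined (each assembly factor gene and Setd2 in each genotype), 3 had 1 tumor set apart from the others by Dixon's criterion; chance alone sets apart about 1 in 20 groups. Sdhaf1 was at 3.763 log2 CPM in KPY-Ctrl replicate 6, above the other KPY-Ctrl tumors at 2.844 to 3.163. Uqcc1 was at 3.885 log2 CPM in KPY-Setd2KO replicate 8, below the others at 4.328 to 4.604. Atpaf1 was at 2.145 log2 CPM in KPY-Ctrl replicate 1, below the others at 2.906 to 3.22.

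Without the tumor in question, the log2 fold change of Sdhaf1 went from 0.15 to 0.30, that of Uqcc1 from -0.21 to -0.14 and that of Atpaf1 from -0.48 to -0.61.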

How the results depend on the processing

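No gene was called by edgeR on genotype alone. DESeq2 called 676 genes and 1 assembly factor, limma voom with quality weights 8293 and 19, edgeR with the leukocyte-marker score 885 and 1, and DESeq2 with the score 2221 and 3 (Ndufaf2, Uqcc3 and Cox20). The 7 tumors with low scores gave 1111 genes and no assembly factor. Leaving out 1 tumor gave from 0 to 1 genes and 0 assembly factors; the single gene came without KPY-Ctrl replicate 6. Assembly factors at an unadjusted p under 0.05 numbered 6, 22 with voom, 10 in the tumors with low scores and from 4 to 7 with 1 tumor left out. Their median log2 fold change of 0.09 ran from 0.02 (KPY-Ctrl replicate 4 left out) to 0.13 (KPY-Ctrl replicate 6 left out) with 1 tumor removed, and was -0.05 with library size alone, -0.01 and 0.01 in the tumors with low and high scores and 0.31 with voom. Setd2 passed an adjusted p of 0.05 with voom (-0.75), with the score (-0.83) and in the tumors with low scores (-1.27), was -0.34 in those with high scores, and ranged from -0.85 to -0.66 with 1 tumor left out. Called slopes ranged from 17 (without KPY-Setd2KO replicate 5) to 23, the subunit to assembly factor ratio from 12.3 to 12.8 (11.8 with the longest and 13.7 with the principal transcript), and genes without overlap from 0 to 1 (Atpaf1 without KPY-Ctrl replicate 1, Ndufaf2 without KPY-Ctrl replicate 6). With 1 tumor left out, the shares of all genes at an unadjusted p under 0.05, with a called slope or without overlap were not computed. These ranges are therefore not results about the assembly factors. The cause of the changes between settings was not tested. Over the settings fitted for each named gene, which leave out DESeq2 with the score, the named assembly factors gave 372 values on the same side of the threshold with the same direction or within error, 12 that newly passed it and 0 called values that changed sign.

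Replicate numbers are shared between the genotypes. Same-numbered tumors deviated together for numbers 1, 2 and 5 (r = 0.52, 0.60 and 0.66) and apart for 3, 4 and 6 (r = -0.48, -0.66 and -0.36). Numbers 1 and 2 had high leukocyte-marker scores in both genotypes and number 5 low scores in both. For 3, 4 and 6 a high score in one genotype met a low score in the other. These correlations follow the score, so whether a shared number pairs tumors was not tested. With the replicate number as a block, 2 assembly factors had an unadjusted p under 0.05 in place of 6. The share of all genes in that fit was not computed, so the lower count is not a result about these genes.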
